A study of Mus musculus with 6 samples.

Results

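In mouse esophageal organoids, 2253 of 22527 ranked non-mitotic cells scored highest for 7 genes, Krt12, Zfp750, Rhov, Slc43a2, Tst, Nat8l and Morrbid, and are called members here. Their working label was Krt12 intermediate cells between basal and suprabasal. A cell entered the ranking if it had at least 500 detected genes and did not have UMIs (unique molecular identifiers, 1 per captured RNA molecule) for 2 or more of the mitotic genes Top2a, Mki67, Birc5 and Ube2c. Its score was the mean deposited value (natural log of 1 plus UMIs per 10000) of the 7 genes, and members lay at or above the pooled 90th percentile, a score of 0.736. Of 26808 barcodes deposited in all, 25154 had enough detected genes and 2627 of those were dropped as mitotic. The score and every gene of these cells come from the same measurements, so levels that set members against other cells are a description and carry no test. Tests were kept for the comparison of library groups described below, which the rule did not use, and for its difference between members and other cells.

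The organoids were founded by esophageal epithelial cells of C57BL6 mice, sorted for integrin-b1, an adhesion receptor of the basal layer, and against DAPI, which stains dead cells. Founders were further split into Cyto-ID Low and Cyto-ID High by a dye for autophagic vesicles, and each group gave 3 droplet 3′ libraries, labelled F2, M3 and F6. Both groups were grown in Matrigel for 15 days in a medium with EGF, Noggin, R-Spondin and the kinase inhibitor Y27632. The labels do not say how many animals each library came from or whether the libraries of a label share an animal, so p-values measure the spread between these libraries. Libraries held 8457489 to 48957523 UMIs, and any pair of libraries shared 0 to 10 cell barcodes.

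The esophageal lining is a stratified squamous epithelium in which basal cells on the basement membrane divide, detach and move outward. On leaving the basal layer cells replace hemidesmosomes and basal keratins with desmosomes and the keratins Krt4 and Krt13, and the outermost cells make cornified envelope proteins. Zfp750 is a transcription factor that promotes terminal differentiation of keratinocytes, and Rhov is an atypical small GTPase. Krt12 is a type I keratin best known from the corneal epithelium. Slc43a2 carries neutral amino acids across membranes, Tst is a mitochondrial sulfurtransferase, Nat8l makes N-acetylaspartate, and Morrbid is a long noncoding RNA near Bcl2l11, a gene it is known to repress in myeloid cells.

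In the GENCODE vM21 annotation of mouse build GRCm38, Krt12 lies at chr11:99415666-99422259 on the minus strand, Zfp750 at chr11:121510978-121519333 (minus) and Rhov at chr2:119269201-119271272 (minus). Slc43a2 lies at chr11:75531694-75577575 (plus), Tst at chr15:78399556-78405907 (minus) and Nat8l at chr5:33995984-34005916 (plus). RefSeq places the noncoding RNA Morrbid at chr2:128298663-128429351. The 250 bases before the Krt12 start are shown because the label of the cells rests on Krt12. They come from RefSeq (GRCm38.p6, chr11:99422260-99422509, minus strand, 5′ to 3′), with capitals marking the letters CCACCC of a Krüppel-like factor motif on either strand and a TATA box, TATAAA.
Krt12: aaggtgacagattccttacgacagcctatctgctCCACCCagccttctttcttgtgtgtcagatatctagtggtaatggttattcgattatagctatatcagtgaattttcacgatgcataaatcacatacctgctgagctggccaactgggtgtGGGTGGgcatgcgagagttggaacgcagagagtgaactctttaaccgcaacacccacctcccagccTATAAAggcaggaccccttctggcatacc
The Krüppel-like letters occurred 2 times, 216 and 95 bases before the start, and the TATA box once, 29 bases before it. No overlap was present between these matches. Among 32851 windows of the same length before mouse gene starts, 28.1% held CCACCC and 12.4% held TATAAA on either strand. An AP-1 motif (TGANTCA) and an RBPJ motif (GTGGGAA), present in 6.75% and 5.42% of windows, had no match in these letters. The whole window is also exon of an antisense gene, A830036E02Rik, that overlaps Krt12, and the sources used here do not state whether counting used strand.

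Krt12 was not the gene that most members shared. It had a UMI in 715 members (31.7%) against 6.96% of the 20274 other ranked cells, and 33.6% of the 2127 ranked cells with a Krt12 UMI were members. Rhov had a UMI in 96.8% of members against 43.4% of other cells, and Zfp750 in 87.6% against 29.3%. Tst was detected in 68.3% of members, Nat8l in 54.9%, Morrbid in 35.7% and Slc43a2 in 20.9%. The cells are therefore called members here and not Krt12 cells, since most had no Krt12 UMI. Rhov and Zfp750 were also common in other cells. Detection follows a gene's level, and these genes chose the cells, so the shares do not rank the genes as markers. Dropping Krt12 from the score kept 86.5% of members, whereas dropping Zfp750 kept 72.7% and dropping Slc43a2 kept 91.2%.

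The score was a continuous quantity with no gap at the threshold. Members had a median score of 0.862 against 0.237 in other cells, and 948 members and 1379 other cells lay within 0.1 of the threshold. The 50 cells just inside it had a mean of 3.28 detected rule genes and the 50 just outside had 3.40. Most members, 69.2%, had 3 or 4 of the 7 genes detected, 30 had all 7, and 30.8% of ranked cells had none. After every cell was thinned to 1000 UMIs (335 shallower cells left out), a new ranking, which took in 2362 cells because of ties, held 1086 (48.2%) of the members. Thinning both redraws the UMIs and evens out depth, and these were not told apart. Members were deeper than other cells in all 6 libraries, with median UMIs of 2074 to 11074 against 1833 to 9470 in the others. Doublets were not removed, and the part of depth or doublets in membership was not tested.

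All 7 rule genes were higher in members than in other cells of each library, by construction, with folds from 2.89 to 8.46. Levels are given as CPM, a gene's UMIs per 1000000 UMIs of a cell, averaged over the cells of a library. Krt12 in members was 64.5, 116 and 110 CPM in Cyto-ID Low (F2, M3, F6) and 39.0, 99.9 and 86.5 CPM in Cyto-ID High (F2, M3, F6). The F2 library was the lowest of each group, and the groups overlapped. Zfp750 was 526, 331 and 626 CPM in the Low libraries and 541, 354 and 673 CPM in the High libraries in the same order, lowest in M3 of both groups. Rhov was 712, 787 and 982 CPM in the Low and 665, 985 and 750 CPM in the High libraries, with overlap. For both genes the group means differed by less than the SD within a group.

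Nat8l alone among the 7 did not overlap between the groups within members. It was 123, 159 and 106 CPM in the Low libraries and 202, 263 and 322 CPM in the High libraries. The means were 130 ± 27.0 CPM (SD, n = 3) and 262 ± 60.0 CPM (SD, n = 3). Since it helped to choose the cells it was not tested, and 2.89% of the 11163 genes tested within members were also higher in every High than in every Low library. In the other non-mitotic cells Nat8l was 26.5 ± 4.21 CPM in the Low and 43.6 ± 2.45 CPM in the High libraries (SD, n = 3 each).

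Tst in members ran from 150 to 458 CPM over the 6 libraries and was highest in M3 of each group. Morrbid ran from 55.3 to 184 CPM, with M3 the lowest of each group, and Slc43a2 from 45.9 to 82.6 CPM. None of these separated Cyto-ID Low from High. The plot of rule gene levels shows this by library.

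**Figure D1:**
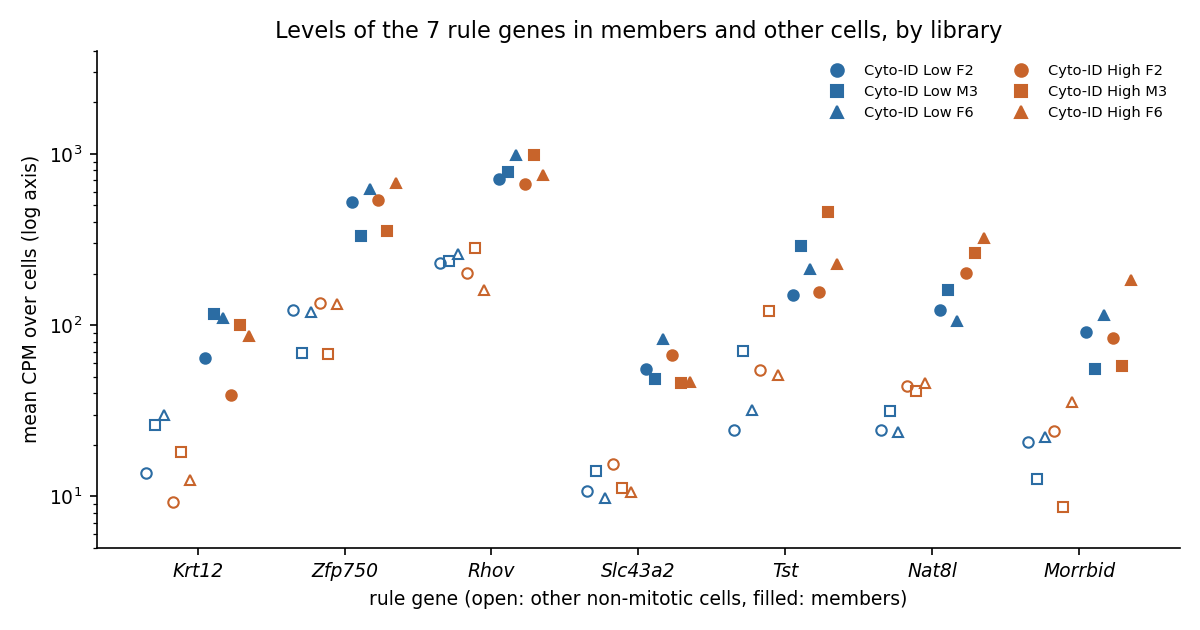
Mean CPM over cells (log axis) of each rule gene in other non-mitotic cells (open symbols) and members (filled symbols), 1 symbol per library, blue for Cyto-ID Low and orange for Cyto-ID High. Filled symbols lie above open ones in every library because these genes chose the members, and in members only Nat8l has all High libraries (202 to 322) above all Low libraries (106 to 159).

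The 7 genes were found together to unequal degrees. In the 22192 non-mitotic cells thinned to 1000 UMIs, Rhov was detected in 37.3% of cells with a Zfp750 UMI and in 19.4% of cells without one, as means over libraries, and was higher with Zfp750 in 6 of 6 libraries. Tst and Nat8l also went together, with Nat8l in 7.45% of cells with Tst and 4.27% of cells without, in 6 of 6 libraries. Krt12 went with Zfp750 less closely: it was found in 3.18% of cells with Zfp750 and 2.25% of cells without, again in 6 of 6 libraries. Tst was found in 6.35% of cells with Krt12 and 6.94% of cells without, and was higher with Krt12 in 2 of 6 libraries. Of the 42 ordered pairs of rule genes, 18 had the higher share in all 6 libraries and 12 in 5. Both orders of a pair always go the same way within a library, so each pair enters these counts in both orders. These shares rest on few UMIs per cell, and the genes of a pair share each cell's library and total.

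An axis from basal to suprabasal was built from genes outside the rule, as the mean of 26 suprabasal and superficial genes minus that of 14 basal genes, and cells of each library were cut into 10 equal bins along it. Members sat past the middle of this axis. Their median percentile was 64.1 ± 4.79 (SD, n = 6 libraries), from 56.9 to 70.9. The share of members was 1.11% in the most basal bin, 20.7% in bin 6, 20.3% in bin 7 and 5.46% in the most superficial bin, as means over libraries. The fullest bin was bin 6, 7 or 8 in every library, with 12.9% to 34.9% members, and 73.0% of members lay in bins 6 to 9. By the same measure, cells highest for Tmem176a, Tmem176b and Btn1a1 had a median percentile of 24.0, those highest for Calm4, Krtdap and Sprr1b 76.0, for Il33, Aldh1a3, Aldh1a7 and Krt20 82.2, and for Sprr2f, Tspan1, Duoxa2 and Psca 92.4. Calm4, Krtdap, Sprr1b, Sprr2f, Tspan1 and Psca are themselves axis genes, so the places of the Calm4 and Sprr2f sets were partly set in advance. The Tmem176 and Il33 sets used no axis gene, and members lay between them. Median UMIs were 4463 in bin 1 and 7153 in bin 10 as means over libraries, and their part in the pattern was not tested.

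The rule genes did not follow the axis in 1 way. Krt12 was 14.0 CPM in bin 1, 50.6 in bin 6, 49.4 in bin 7, 8.36 in bin 9 and 3.31 in bin 10. Its highest bin was 6 or 7 in each library. Slc43a2 did not follow this course, with 24.0 CPM in bin 1, 16.5 in bin 2 and 28.0 in bin 6, and was 0.370 CPM in bin 10. Rhov was 83.5 CPM in bin 1, 480 in bin 7 and 352 in bin 10, and Zfp750 was 36.7, 259 and 137 CPM in the same bins. Morrbid was highest in bin 8 on average, at 46.4 CPM, against 34.7 in bin 10. As means over libraries Krt12 and Slc43a2 were thus lower in the last bin than in the first, while Rhov, Zfp750 and Morrbid were higher there. In Cyto-ID High F6, Krt12 went the other way, with 5.55 CPM in bin 1 and 6.04 CPM in bin 10.

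In the same bins Krt5 and Krt14, the keratin pair of basal cells, were highest in bin 6 as means over libraries, at 4271 and 14493 CPM against 3815 and 10164 CPM in bin 1 and 3503 and 10077 CPM in bin 8. Krt14 was highest in bin 6 or 7 in each library. Krt5 was highest in bin 6 or 7 in 4 libraries, in bin 8 in High F6 and in bin 1 in High M3. Col17a1, the hemidesmosome collagen, had no such peak, with 1036 CPM in bin 1, 216 in bin 6 and 4.10 in bin 10. Krt13 was 318 CPM in bin 1, 2890 in bin 6 and 13958 in bin 10. Psca, a surface protein of the superficial cells here, was 987 CPM in bin 6 and 76311 in bin 10. Bins 6 to 8, where members were most frequent, thus had less Col17a1 and more Krt13 than bin 1 in each library, while Krt5 was not above bin 1 in all of them. Krt5, Krt14, Col17a1, Krt13 and Psca are themselves axis genes, so their trends are partly set by the axis.

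**Figure D2:**
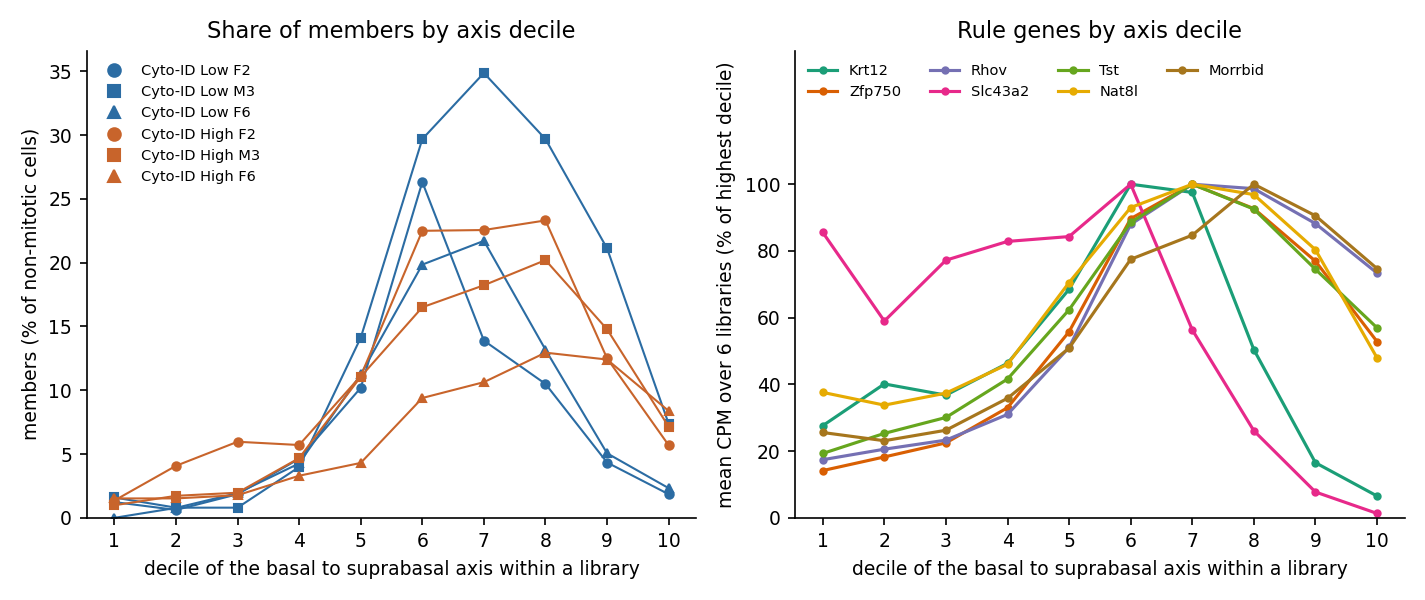
Left, members as a percentage of non-mitotic cells in each decile of the basal to suprabasal axis, 1 line per library. Right, mean CPM of each rule gene over the 6 libraries as a percentage of its highest decile. The share of members is highest in deciles 6 to 8 in every library, Krt12 and Slc43a2 are lowest in decile 10, and Rhov, Zfp750 and Morrbid keep over 50% of their peak there.

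Basal genes were mostly lower in members than in other non-mitotic cells, with Krt5, Krt14 and Sox2 as the exceptions. Of 14 basal genes, 11 were lower in members in all 6 libraries and 3 were higher, and the median log2 ratio was -0.84 against -0.03 over all 9005 genes with at least 5 CPM. Over those genes 14.2% were lower and 10.8% were higher in all 6 libraries, and since the rule used these cells nothing is read from the difference. Col17a1 was 174 ± 91.3 CPM in members and 392 CPM in other cells. Itgb4, the integrin of hemidesmosomes, was 140 against 280 CPM, Lamb3, a laminin-332 chain, 75.1 against 191 CPM, and Krt15 138 against 403 CPM. Trp63, the master transcription factor of stratified epithelia, was 45.5 against 66.4 CPM. Krt5 was 4452 ± 575 CPM against 3268 CPM and Krt14 14081 ± 3910 CPM against 9816 CPM (SD, n = 6). Sox2, a transcription factor of the esophageal lineage, was the other basal gene above other cells, at 92.7 against 73.5 CPM. Krt5 and Krt14 therefore differed from other cells in the opposite direction to Krt15, Col17a1, Itgb4 and Lamb3.

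Suprabasal genes were mostly higher in members, while superficial genes were mixed. Of 12 suprabasal genes, 8 were higher and 1, Mal, was lower in members in all 6 libraries, with a median log2 ratio of 0.70. Over all genes 10.8% were higher and 14.2% lower in all 6 libraries. Krt13 was 8110 ± 2612 CPM in members and 4398 CPM in other cells, Krt4 965 against 592 CPM and Anxa1, a phospholipid-binding protein of suprabasal cells, 4089 against 2572 CPM. Mal, a membrane protein of differentiated cells, was 411 against 842 CPM. Of 13 superficial genes with at least 5 CPM, 5 were lower (38.5%) and 2 higher (15.4%) in all 6 libraries. The others were neither, and the median log2 ratio was -0.34. Psca was 5833 ± 3157 CPM against 14230 CPM, and Tgm1, the enzyme that crosslinks the cornified envelope, was 194 against 85.6 CPM. Members thus had most of the suprabasal genes above the other cells. The share of superficial genes above them was near that of all genes. The Sprr2 genes are near-identical copies whose counts may be split.

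Desmosomes, the junctions that rivet keratin filaments of neighbouring cells together, had most of their genes higher in members. Of 12 desmosome genes with at least 5 CPM, 9 were higher in members in all 6 libraries and 0 were lower, where 10.8% and 14.2% of all genes were, with a median log2 ratio of 0.66. Desmocollin Dsc2 was 229 ± 111 CPM in members and 92.4 CPM in other cells. Desmoglein Dsg3 was 393 against 222 CPM, desmoplakin Dsp 1355 against 777 CPM and plakophilin Pkp1 573 against 360 CPM. Dsg2, the desmoglein of simple epithelia, was 60.4 against 65.7 CPM and was higher in 3 of 6 libraries.

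Transcription factors of squamous differentiation were higher in members in part. Of 22 factors with at least 5 CPM, 9 were higher (40.9%) and 3 lower (13.6%) in members in all 6 libraries, with a median log2 ratio of 0.25. Over all genes these shares were 10.8% and 14.2%, so the share of lower factors was near that of all genes. Ovol1, a zinc finger factor of keratinocyte exit from proliferation, was 51.6 ± 12.1 CPM against 25.4 CPM. The grainyhead factors Grhl1 and Grhl3 were 36.1 against 17.2 CPM and 25.3 against 11.4 CPM. Klf4, a Krüppel-like factor that partners with Zfp750 in keratinocytes, was 273 against 204 CPM. Hopx, Cebpb and Cebpd were the factors lower in all 6 libraries, with Hopx at 93.6 against 179 CPM.

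In the Notch pathway, in which a ligand on a neighbouring cell exposes the receptor to cleavage and which promotes exit from the basal layer, members differed in a few genes. Of 10 Notch genes with at least 5 CPM, 3 were higher and 1 lower in all 6 libraries, where 10.8% and 14.2% of all genes were, and the median log2 ratio was 0.27, or 0.12 after thinning. Notch3 was 40.1 ± 12.6 CPM in members and 17.8 CPM in other cells, and the feedback inhibitor Nrarp was 114 ± 28.0 against 49.8 CPM. Both were higher in all 6 libraries, as was the Notch regulator Dtx2 at 38.3 against 24.9 CPM. Notch1 was 135 against 76.3 CPM and was higher in 5 of 6 libraries. The ligand Jag2 was 9.03 against 37.7 CPM and lower in all 6, and Jag1 was 102 against 111 CPM.

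Genes related to the rule genes by family or pathway were described in the same way. Over all genes 10.8% were higher and 14.2% lower in all 6 libraries, and these lists are too short for counts of 1 or 2 to be set apart from that. Of 6 neutral amino acid transporter genes other than Slc43a2 with at least 5 CPM, 0 were higher and 2 lower in members in all 6 libraries, with Slc38a2 at 83.9 against 130 CPM. Bcl2l11, the neighbour of Morrbid that encodes the death protein BIM, was 36.0 CPM in members against 33.3 CPM in other cells and higher in 4 of 6 libraries. Of 9 BCL2 family genes with at least 5 CPM, 1 was higher and 2 lower in members in all 6 libraries, with a median log2 ratio of 0.0028. The higher one was the survival gene Mcl1, at 561 against 366 CPM, and the lower ones were the survival gene Bcl2l1, at a log2 ratio of -0.24, and the death gene Bax, at 138 against 161 CPM. Of 4 genes of sulfur metabolism at that level, 1 was higher and 2 lower in all 6 libraries. Mpst, the sulfurtransferase next of kin to Tst, was higher at 146 against 114 CPM, while Ethe1, a mitochondrial enzyme of sulfide oxidation, was lower at 56.0 against 68.5 CPM, as was the thioredoxin reductase Txnrd1 at 28.6 against 45.4 CPM. Of 6 genes of acetylaspartate metabolism, 2 were higher and 1 lower in all 6 libraries, with Got2, a mitochondrial enzyme of aspartate, at 155 against 122 CPM. Of 6 corneal genes other than Krt12, 4 had at least 5 CPM, of which 0 were higher and 1 lower in all 6 libraries. Their summed level in members was 296 to 828 CPM per library, most of it from Tkt, a sugar phosphate enzyme found in many tissues (492 CPM), and Clu, a secreted chaperone (160 against 577 CPM in other cells). Pax6, the factor of corneal identity, and Kera were at 0 CPM in members of all libraries.

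Over the 5019 genes with at least 20 CPM in either set, the 7 rule genes left out, 24 were at least 2-fold higher and 91 at least 2-fold lower in members, after 5 CPM were added to both. S100a9, a subunit of the antimicrobial protein calprotectin, had the highest ratio among them. In members it was 144, 141 and 109 CPM in Low F2, M3 and F6, and in the High libraries 125, 115 and 271 CPM. In other cells it was 30.6, 63.7 and 24.6 CPM and 36.8, 57.2 and 105 CPM in the same order. Each library's members thus lay above its other cells. Alox15, a lipoxygenase of unsaturated fatty acids, was 552 ± 309 against 202 CPM, and Lypd3, a Ly6 family surface protein of suprabasal keratinocytes, was 398 ± 56.2 against 173 CPM. S100a9 and Alox15 had been listed for the Krt12 cells with earlier results of these data known, so their rank is not independent evidence. Neither gene was particular to members. S100a9 was 375 CPM in the Calm4 set and 28.2 CPM in the Il33 set. Alox15 was 764 CPM in the Il33 set and 155 CPM in the Calm4 set. The alarmin Il33 was 310 ± 92.5 against 143 CPM and the calmodulin-like Calml3 was 291 ± 93.1 against 134 CPM. Skint3, Fbp2, Teddm3, Pinlyp, Prom2, Dsc2 and Tgm1 completed the 12 highest, all above other cells in 6 of 6 libraries, as were 15.9% of the 5019 genes. Their sign was the same after thinning, with the members still those picked at full depth. The 12 were picked for their ratios, so neither result is further evidence.

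Among the 8 genes with the lowest ratios, Tspan1, a tetraspanin of the superficial list, was 13.4 ± 13.1 CPM in members and 160 CPM in other cells. Sprr2f was 143 ± 109 against 1006 CPM, and Duoxa2, which matures the oxidase DUOX2, was 14.5 against 88.9 CPM. Igfbp7, a secreted growth factor binding protein, was 39.5 ± 20.4 against 217 CPM, Wnt10a, a Wnt ligand, 7.11 against 61.4 CPM, and the matrix genes Thbs1 and Col12a1 were 21.4 against 105 CPM and 24.5 against 120 CPM. In Cyto-ID High F6, where Sprr2f was 104 CPM in other cells, members held 96.1 CPM, so the ratio there was close to 1. U90926 was the eighth gene, at 7.18 against 35.8 CPM, and members of Cyto-ID Low F2 at 37.7 CPM stood far above those of the other libraries.

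**Figure D3:**
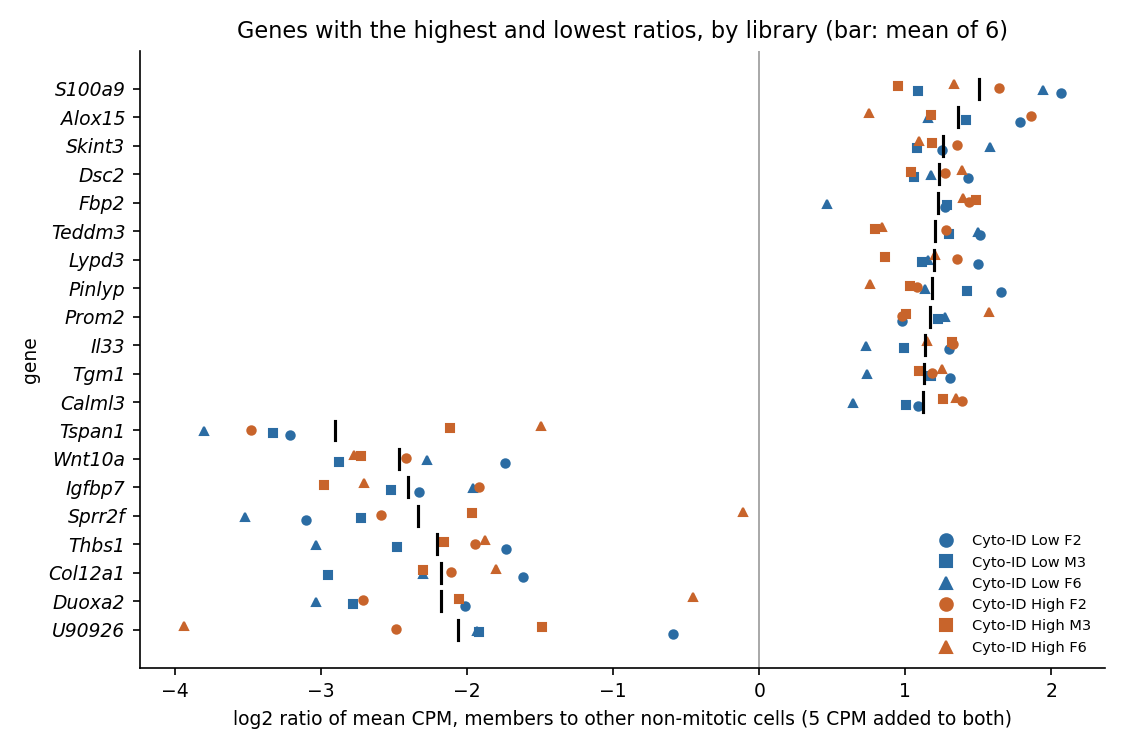
Log2 ratio of mean CPM in members to other non-mitotic cells (5 CPM added to both) for the 12 genes with the highest and the 8 with the lowest mean ratio once the 7 rule genes are left out, 1 symbol per library and a bar at the mean. All 12 lie above 0 and all 8 below 0 in the 6 libraries, with Sprr2f and Duoxa2 nearest 0 in Cyto-ID High F6. The genes were picked for these ratios, and over all 5019 genes 15.9% lay above and 14.6% below 0 in the 6 libraries.

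Outside the rule, the gene whose level followed the score most closely across non-mitotic cells was Krt6a. Spearman's rank correlation was computed in each library and averaged over 6, among 4656 genes detected in at least 10% of cells, and the rule genes, which make up the score, are not ranked here. Krt6a, a keratin of activated suprabasal cells, led the other genes with a mean of 0.55 (0.44 to 0.64), and its near-identical copy Krt6b may share its reads. Gsta4, a glutathione transferase, had 0.52, Ly6d, a Ly6 family surface protein, 0.52, Anxa1 0.48 and Krt13 0.45. Cldn4, Lypd3, Rab25 and Perp followed at 0.43 to 0.41. All these points share a cell's depth, so the values are given with no p.

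Members overlapped to unequal degrees with cells picked by the same percentile for other gene sets. Each set, like the members, held 2253 of the 22527 ranked cells, which is the share to read the overlaps against. Of the members, 1557 (69.1%) were in none of the 4 sets compared. They shared 324 cells (14.4% of each) with the Il33, Aldh1a3, Aldh1a7 and Krt20 set and 321 (14.2% of each) with the Calm4, Krtdap and Sprr1b set. Overlap was 32 cells (1.42%) with the Tmem176 basal set and 53 (2.35%) with the Sprr2f superficial set. The Il33 and Calm4 overlaps thus lay above that share and the other two below it. In members the summed level of Calm4, Krtdap and Sprr1b was 84.2 to 306 CPM in the Low and 1343 to 2442 CPM in the High libraries. The pooled Calm4 set was not split by group, so its values may rest unequally on the libraries. The sets share cells and members were chosen for the rule genes, so what follows is a description. Krt12 was 86.1 CPM in members, 18.2 in all other non-mitotic cells, 15.8 in the Tmem176 set, 13.8 in the Il33 set, 13.0 in the Calm4 set and 1.98 in the Sprr2f set. Slc43a2 was 57.6 CPM in members, 11.97 in all other non-mitotic cells, 25.6 in the Tmem176 set and 2.20, 1.97 and 1.92 in the other 3. Rhov was 507 CPM in the Il33 set, and Nat8l 155 and Tst 193 CPM in the Calm4 set. Morrbid was 61.1 CPM in the Il33 set and 20.8 in the Calm4 set. Genes outside the rule were not all highest in members. In the Il33 and Calm4 sets Krt13 was 14761 and 12775 CPM against 8110 in members, and Krt4 1908 and 3463 against 965. In the same order Ovol1 was 19.8 and 64.3 against 51.6 CPM, and Mcl1 652 and 314 against 561. Dsc2 was 217 and 216 against 229 CPM, Notch3 37.1 and 27.2 against 40.1, and Nrarp 89.4 and 104 against 114.

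Markers of non-epithelial cells were at or near 0 in members. The summed level per library was 0 to 0.442 CPM for 6 fibroblast genes (4 at 0 in all libraries), 0 to 1.42 CPM for 6 immune genes (5 at 0), 0 to 0.482 CPM for 4 endothelial genes (2 at 0) and 0 to 1.01 CPM for 4 melanocyte genes (3 at 0). All 4 neuroendocrine genes were at 0. Of 10 columnar and gastric genes, 7 were at 0 in members of all libraries, among them the mucins Muc5ac and Muc6 and the intestinal factor Cdx2. Their summed level was 285 to 1434 CPM per library, nearly all of it Epcam, an adhesion protein of many epithelia (818 CPM in members, 927 in other cells), with Gkn1 at 0.23 and Lgr5 at 0.054 CPM. Krt5, Krt14 and Krt13, the squamous keratins, were at the levels given above.

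The share of members did not separate the groups. Members made up 7.54%, 14.4% and 8.03% of non-mitotic cells in Low F2, M3 and F6, against 11.5%, 9.73% and 6.62% in High. Wilson 95% intervals, which cover counting error only, ran from 13.5% to 15.4% for the highest and from 5.88% to 7.43% for the lowest. The Low M3 library stood above the other 5, and the groups overlapped. The means were 9.99% ± 3.83 and 9.27% ± 2.46 (SD, n = 3 each), a difference of -0.72 percentage points with a two-sided exact permutation p of 0.80, where 0.10 is the smallest p that 3 against 3 can give. The difference was 1.49 percentage points without Low M3 and 0.61 without High F6.

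**Figure D4:**
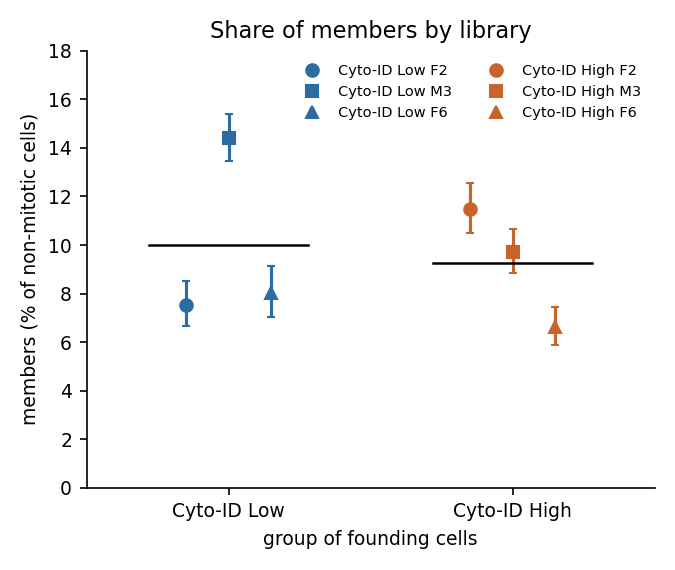
Members as a percentage of the non-mitotic cells of each library, with Wilson 95% intervals as error bars and a line at each group's mean. The Low group spans 7.54% to 14.4% and the High group 6.62% to 11.5%, so the groups overlap.

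Within members, organoids from Cyto-ID High founders had higher levels of Krtdap, Mt4, Calm4, Capns2 and Gm94. In limma's test over 11163 genes, 5 were higher in High at an adjusted p under 0.05 (0.0448% of genes) and 0 were lower (0%), with 368 at an unadjusted p under 0.05 in either direction. Krtdap, a secreted protein of differentiating keratinocytes, was 234, 145 and 70.2 CPM in Low F2, M3 and F6, against 1086, 1103 and 2016 CPM in High. Every High library lay above every Low library, as for 2.89% of the genes tested. The log2 fold change was 3.43 ± 0.40 (SE), with an adjusted p of 0.0125 in limma.

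Mt4, the metallothionein of stratified squamous epithelia, was 61.3, 12.3 and 1.22 CPM in the Low and 472, 369 and 588 CPM in the High libraries (log2 fold change 5.37 ± 0.80, limma adjusted p = 0.0324). Calm4, a calmodulin-like protein of cornifying cells, was 2.66, 8.24 and 0 CPM in the Low and 48.2, 106 and 87.4 CPM in the High libraries (4.69 ± 0.66, limma adjusted p = 0.0299). The Low members thus held little of either. Capns2, a calpain small subunit, was 33.3 ± 4.78 against 127 ± 15.5 CPM (2.01 ± 0.28, limma adjusted p = 0.0299) and Gm94 14.7 ± 11.4 against 155 ± 84.6 CPM (3.48 ± 0.51, limma adjusted p = 0.0324). Whether reads were shared among metallothionein genes was not tested. None of the 5 calls was kept without Low F6, without High F2 or without High F6, where 0 genes passed. Without High M3, 8 passed, and without Low M3, 3. With summed UMIs or without the filter on low genes 0 passed, and with a pseudocount of 0.1 CPM or at least 1000 detected genes only Krtdap did. After thinning to 1000 UMIs Capns2 (limma adjusted p = 0.370) and Calm4 (0.0683) were not called. Capns2 was also lost at the 95th percentile (limma adjusted p = 0.141), without Low F2 (0.0541) and without Low M3 (0.0524). Gm94 was lost with plain CPM (limma adjusted p = 0.0683) and without Low M3 (0.0524), and Calm4 with the score without Krt12 (0.0595).

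The 5 lower genes of smallest p with at least 10 CPM did not pass. Alox15 was 1033, 683 and 692 CPM in the Low and 414, 278 and 212 CPM in the High libraries, without overlap, at a log2 fold change of -1.32 ± 0.29 and a limma adjusted p of 0.387. Krt20, a keratin of simple epithelia, was 423 ± 134 against 165 ± 43.5 CPM (limma adjusted p = 0.852). Tnfaip2 was 72.6 ± 13.5 against 32.7 ± 3.68 CPM, Enpp3 41.8 ± 6.88 against 18.7 ± 7.73 CPM and Nradd 27.7 ± 6.97 against 11.2 ± 5.19 CPM, at limma adjusted p of 0.994 to 0.999. Groups that did not overlap in this direction made up 5.66% of the genes tested.

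Most gene groups showed no call between the groups within members, where 0.0448% of all genes tested were called higher and 0% lower. Among suprabasal genes 2 of 12 tested, Krtdap and Calm4, were higher and 0 lower, with a median log2 difference of 0.40 against -0.02 over all genes. Among 13 genes that earlier results of these libraries had tied to the Cyto-ID groups, 4 were higher and 0 lower, and since that list was chosen on these samples it is not independent evidence. Krtdap is on that list too, so the suprabasal count is not independent of it. No gene passed among 14 basal (median -0.09), 25 squamous transcription factor (0.24), 13 desmosome (0.06), 11 Notch (0.24) or 19 autophagy genes (-0.09). Given the share over all genes, lists this short are not set apart by having no call. Map1lc3b, the autophagosome protein LC3B, and the receptor Sqstm1 were in the autophagy group. In members Sqstm1 was 82.6 to 121 CPM in the Low and 55.9 to 108 CPM in the High libraries, with overlap. Krtdap, Calm4 and Sprr1b also chose the Calm4 set that holds 14.2% of members, and its part in the 5 calls was not tested.

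**Figure D5:**
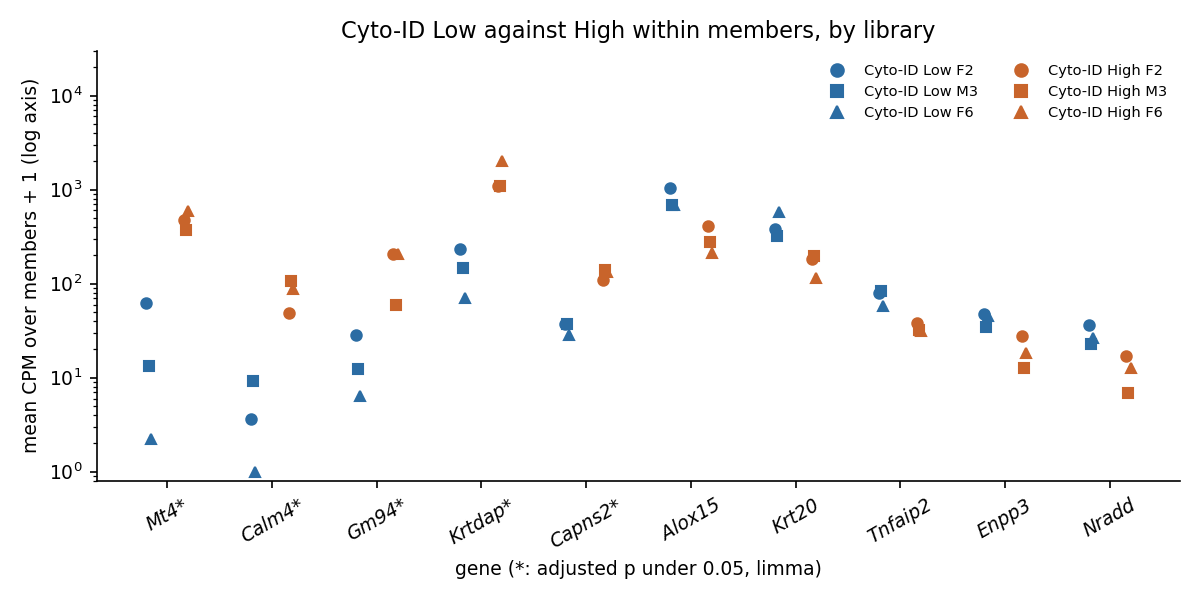
Mean CPM over members plus 1 (log axis) in each library, blue for Cyto-ID Low and orange for Cyto-ID High, for the 5 genes higher in High at a limma adjusted p under 0.05 (starred) and the 5 lower genes of smallest p. All 10 show no overlap between groups, and the lower genes did not pass the threshold. The genes were picked by call or p, so the lack of overlap is no further evidence. Of the genes tested, 2.89% did not overlap in the higher and 5.66% in the lower direction.

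The Cyto-ID difference in members was set against that in the other non-mitotic cells of the same libraries. In limma's test of that difference of differences over 11752 genes, 1 gene was lower (0.00851%) and 0 were higher (0%) at an adjusted p under 0.05, with 764 at an unadjusted p under 0.05. The gene was Krtdap. In other non-mitotic cells it was 55.2 ± 32.4 CPM in the Low and 1068 ± 411 CPM in the High libraries, and in members 150 ± 81.9 and 1402 ± 532 CPM (SD, n = 3 each). Members held more Krtdap than other cells in each of the 6 libraries. On the log2 scale their High to Low difference was smaller by 1.05 ± 0.11 (SE), a difference of -1.05 with a limma adjusted p of 0.00072. In CPM the gap between the group means was not smaller in members than in other cells, so the direction holds for the ratio only. The adjusted p was 0.00046 to 0.0109 with each library left out. The call was lost with members at the 95th percentile (limma adjusted p = 0.346), with the score without Krt12 (0.0792), with at least 1000 detected genes (0.0791) and without the filter on low genes (0.410). Mt4, Calm4, Capns2 and Gm94 had no called difference, which does not show that their change was equal in both kinds of cell.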

How the data were processed

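Single-cell libraries were made with a 10x Genomics 3′ kit, and the submitters' processing notes name Cell Ranger 6.0.0, Seurat 4 and builds mm10 and GRCm38 with no order or role. The authors deposited, per library, natural log values of 1 plus UMIs per 10000 for 32285 genes. No label gives this unit, and it was inferred: back-transformed cells total 10000, and 100% of entries are integer multiples of 1 UMI (tolerance 1e-06). UMIs were thus recovered for depth and thinning. A count test had been foreseen for raw counts only, and limma took its place.

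The members, the gene lists and the compared sets were chosen with earlier results of these data known. Mean CPM per library was scaled by TMM-type factors (30% of ratios and 5% of levels trimmed) and analysed as log2(CPM + 1) in limma 3.58.1 (R 4.3.3) with a mean-variance trend. Genes reaching 1 CPM in 3 or more libraries were tested, p-values were Benjamini-Hochberg adjusted with a threshold of 0.05, and the rule genes were left out of the tests. Fold changes on this scale understate low genes. Shares were compared with two-sided exact permutation tests. The procedure was tested on simulated data.

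Genes named against other cells were the 12 highest and 8 lowest log2 ratios (5 CPM added) among genes with at least 20 CPM, the rule genes left out. Within members they were up to 10 called genes per direction, or, where under 5 passed, the 5 of smallest p with at least 10 CPM. For the difference of effects they were up to 5 called genes per direction, and for likeness to the score the 10 highest mean rank correlations outside the rule genes. Some genes that these rules or lists cover are not reported here. Python 3.11.15 with numpy 2.4.6, scipy 1.17.1 and pandas 2.3.3 did the rest. Alternatives changed the percentile, gene minimum, rule genes, depth, pseudocount, filter, scaling, weighting of cells, pairing and libraries.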

Additional observations from a re-analysis of the deposited data

Results flagged for a closer look

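Krtdap differed in its Cyto-ID effect between members and the other non-mitotic cells of the same libraries: the High to Low difference was -1.05 ± 0.11 (SE) on the log2 scale in members relative to other cells, smaller as a ratio but not in CPM (limma adjusted p = 0.00072). The call was lost at the 95th percentile (limma adjusted p = 0.346), without Krt12 in the score (0.0792), with at least 1000 detected genes (0.0791) and without the filter on low genes (0.410). Krtdap was higher in High than in Low in all 3 same-labelled pairs of libraries in both kinds of cell, from 150 to 1402 CPM in members and from 55.2 to 1068 CPM in other cells as group means.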

How the results depend on the processing

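The difference in the share of members, High minus Low, was -0.72 percentage points and turned positive at the 95th percentile (0.27), with at least 1000 detected genes (1.30), without Krt12 (0.14) or Rhov (1.40) in the score and after thinning to 1000 UMIs (0.34). Leaving out a library gave -1.94 to 1.49, and no setting gave an exact permutation p under 0.50. The members' median axis percentile was 60.9 to 64.9 under the 3 alternatives. The 5 genes called within members became 1 with a pseudocount of 0.1 CPM, 0 without the filter on low genes (457 at an unadjusted p under 0.05 in limma), 0 with summed UMIs (435), 1 with at least 1000 detected genes and 0 to 8 with a library left out, where the 3 counts of 0 had 173, 617 and 192 at an unadjusted p under 0.05. Plain CPM moved the median log2 change of all genes from -0.02 to -0.12 and called 4. The 1 gene called for the difference of effects became 2 with a pseudocount of 0.1 CPM, 2 with summed UMIs, 0 without the filter (993 unadjusted), 0 at the 95th percentile (665), 0 without Krt12 in the score (707) and 1 to 4 with a library left out; with at least 1000 detected genes 1 was called and it was not Krtdap. The causes were not tested. Libraries with the same label were not taken as pairs, since their deviations within members correlated at 0.37 (F2), 0.43 (M3) and 0.09 (F6) over 8482 genes, and High F6 correlated best with Low F2 (0.15). With a replicate block, 4 genes were called within members, all among the 5 (Mt4 was not, at a limma adjusted p of 0.0585), and 9 for the difference (3 higher, 6 lower, Krtdap among them), and the exact sign-flip p of the share was 0.75. Median UMIs per library from 1778.5 to 9928 limited detection, so a rule gene with no UMI in a cell is not shown to be absent.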

Other observations

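Keratins outside the basal and suprabasal lists split in members. Krt6a, Krt6b and Krt16, keratins of activated and wounded epithelium, were 4560 against 2188 CPM, 1295 against 606 CPM and 3125 against 1576 CPM in other non-mitotic cells, higher in all 6 libraries. In the Il33 and Calm4 sets Krt6a was 5751 and 4862 CPM and Krt16 2211 and 7233 CPM, so neither was particular to members. Krt7 and Krt17 were 572 against 1316 CPM and 695 against 1711 CPM, lower in all 6. Of 12 such keratins with at least 5 CPM, 5 were higher and 6 lower in all 6 libraries, where 10.8% and 14.2% of all genes were.

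Replication genes were low in members although only mitotic cells had been dropped. Of 11 S phase genes with at least 5 CPM, 0 were higher and 7 lower in all 6 libraries, where 10.8% and 14.2% of all genes were. The helicase genes Mcm6 and Mcm3 were 6.60 against 17.4 CPM and 3.81 against 12.9 CPM. Of the 2627 mitotic cells dropped, 165 (6.28%) reached the members' score, and Krt12 was 34.7 CPM in the mitotic cells. Interferon genes had a median log2 ratio of -0.72 against -0.03 over all genes, with 2 of 8 lower and 0 higher in all 6 libraries. That list is too short for these counts to be set apart from the shares over all genes. Of 10 immediate early and heat shock genes, 2 were higher (20%) and 4 lower (40%) in members in all 6 libraries, with a median log2 ratio of -0.22. This list is also too short for the 2 higher genes to be set apart from the share over all genes. Fos was 116 against 206 CPM, Dusp1 75.5 against 129 CPM, Atf3 392 against 514 CPM and Fosb 132 against 156 CPM. The heat shock genes Hspa1a and Hspa1b, the higher ones, were 71.7 against 49.0 CPM and 125 against 78.0 CPM.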
